A study of Mus musculus with 21 samples.

Results

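*Asns*, the gene for asparagine synthetase, was followed in mouse liver together with 9 genes that lie within 5 Mb of it on chromosome 6 (*Col1a2*, *Casd1*, *Sgce*, *Peg10*, *Ppp1r9a*, *Pon1*, *Pon3*, *Pon2* and *Sem1*). These 10 genes were rows of a count table of 46078 genes and were found by the symbols that GENCODE M21 gives their Ensembl identifiers. *Asns* and *Ppp1r9a* had been noticed because they differed between genotypes on the control diet, so that contrast is described below and not tested. The window held 97 genes of the table in all, of which 31 had enough reads for testing, and 9 of the 10 genes followed here were among them.

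The 21 livers, 1 library each, came from *Cse* knockout mice (KO, 129/C57BL/6 background), in which the gene for cystathionine γ-lyase, the last step from methionine to cysteine, is deleted, and from comparison mice labelled WT. The study's text describes its comparison animals as heterozygous, so WT is used here as a label. Per the study's methods all animals were male and calorie restricted, and they were at least 9 weeks old when the diets began. The control diet (CTR) was the defined amino acid diet 5CC7, and the others were the same diet without cysteine (noCys) or without tryptophan (noTrp), with the remaining amino acids raised in proportion. There were 3 WT and 4 KO livers on the control diet, 4 WT and 3 KO without cysteine, and 2 WT and 5 KO without tryptophan, and the titles call the replicates biological.

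Libraries held 8889951 to 27230852 counts. *Cth*, the gene symbol of *Cse*, lay between 6.34 and 14.99 CPM (a gene's count relative to its TMM-scaled library size) in the 12 KO libraries and between 108 and 452 in the 9 WT libraries, as labelled. The 10 hepatocyte markers looked for were found in every library, with *Alb*, the gene of serum albumin, at 21622 CPM or more. No single library was set aside, but leaving out KO noCys replicate 3 lowered the number of genes called between KO and WT without cysteine from 4055 to 2358 of 14370.

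Asparagine synthetase makes asparagine from aspartate with the amide nitrogen of glutamine. When an amino acid runs short, uncharged tRNAs activate the kinase GCN2, and translation of the transcription factor ATF4 rises. *Asns* is a classic target of ATF4 in this integrated stress response (ISR), through a C/EBP-ATF response element (CARE) just upstream of its start. The neighbours have other roles. *Ppp1r9a* encodes neurabin-1, which binds actin and protein phosphatase 1. *Sgce* and *Peg10* are an imprinted pair expressed from the paternal allele. *Casd1* encodes a sialic acid O-acetyltransferase of the Golgi. *Pon1* and *Pon3* encode secreted lactonases carried on high-density lipoprotein, and *Pon2* an intracellular relative. *Sem1* encodes a small subunit of the proteasome lid, and *Col1a2* encodes a chain of type I collagen, which in liver is made chiefly by stellate cells.

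The upstream sequence of *Asns* is shown because it carries the element through which the gene is known to respond to amino acid loss. The 250 bases before its RefSeq start (GRCm38.p6, chr6:7693210-7693459, minus strand, 5′ to 3′) hold 1 match to the CARE pattern TGATGNAAN, in capitals, which begins 23 bases before the start.
*Asns* upstream: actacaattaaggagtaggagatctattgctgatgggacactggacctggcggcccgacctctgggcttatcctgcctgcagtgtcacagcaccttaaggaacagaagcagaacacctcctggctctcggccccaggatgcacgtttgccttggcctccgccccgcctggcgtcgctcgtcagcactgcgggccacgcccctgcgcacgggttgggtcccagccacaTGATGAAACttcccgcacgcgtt

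A second known element of *Asns*, GTTACA, begins 3 bases before the start and runs past it (chr6:7693199-7693220 with 8 bases on each side, in capitals).
*Asns* second element: ccgcacgcGTTACAgaagcccg

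GENCODE M21 places the start of *Asns* at 7693254, upstream of both elements, so the positions given here hold for the RefSeq start only. Both strands of 300-base RefSeq windows, from 250 bases before a start to 50 after it, were searched for these letters, and the 2 patterns do not overlap. The CARE pattern was present for 1215 of 27025 genes with a window (4.5%), GTTACA for 2565 (9.49%) and both for 220 (0.814%). Of the 10 genes, 8 had a window. *Asns* held both patterns and the other 7 held neither. *Sgce* and *Peg10* had no entry. Of 47 other genes listed here for the ISR, 39 had a window and 16 of these (41.0%) held the CARE pattern. The 5 of the 16 with the largest difference between KO and WT without cysteine are set beside *Asns*, each with 8 bases on either side of the match in capitals and read on the strand that holds the pattern.
*Asns*, chr6:7693216-7693240: cagccacaTGATGAAACttcccgca
*Fgf21*, chr7:45615614-45615638: tggacggaTGATGCAATgggggggt
*Nupr1*, chr7:126625565-126625589: gccctgtcTGATGCAATctggccct
*Pck2*, chr14:55540154-55540178: taagatacTGATGTAACtttgaagg
*Pycr1*, chr11:120643835-120643859: cctgtgtaTGATGCAATgcacaagg
*Trib3*, chr2:152344031-152344055: cgcccggcTGATGTAAAcctgagct
The match in *Trib3* lies after its RefSeq start and the others lie before theirs. Binding was not measured, and a match is a description of the letters only.

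In KO livers *Asns* was raised on every diet, and by far the most without cysteine. On the control diet it was at 1.91, 1.62 and 1.16 CPM in WT CTR and at 14.3, 31.2, 17.5 and 29.0 CPM in KO CTR. Every KO CTR library lay above every WT CTR library, and the log2 fold change was 3.86, given without a test because the gene was chosen on this contrast.

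Without cysteine *Asns* was at 6.18, 4.17, 0.950 and 1.86 CPM in WT noCys and at 146, 181 and 147 CPM in KO noCys. Its lowest KO library was thus far above its highest WT library. *Asns* (ENSMUSG00000029752, chromosome 6, 7675169 to 7693254, minus strand) was 47.3-fold higher in KO than in WT here. On the log2 scale this was 5.56 (SE 0.40), with an adjusted p of 1.51e-08 by edgeR's quasi-likelihood test and Benjamini-Hochberg adjustment over all 14370 tested genes, as for every adjusted p below unless another tool is named. In the WT libraries *Asns* rested on 10 to 106 reads each, so its WT level carried a wide counting error. Without WT noCys replicate 1 the log2 fold change was 6.15 (adjusted p = 6.99e-08). Of the 10 hepatocyte markers 3 fell in the same comparison, *Alb* (-1.15), *Ttr* (-1.03) and *Serpina1a* (-1.01), and none rose, where 14.8% of all genes were called higher and 13.4% lower. Their part in the result was not tested, and in bulk tissue fewer cells of a type and less RNA per cell cannot be told apart.

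Without tryptophan *Asns* was at 6.04 and 2.39 CPM in WT noTrp and at 43.3, 35.4, 24.9, 35.2 and 30.4 CPM in KO noTrp. Again the genotypes did not overlap. The rise was 7.94-fold (log2 fold change 2.99, SE 0.47, adjusted p = 0.0061). It was not called by limma-voom (3.03, adjusted p = 0.232). WT noTrp had only 2 animals, and the log2 fold change was 3.82 without its replicate 1 (adjusted p = 0.0255) and 2.48 without its replicate 2 (adjusted p = 0.0333).

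**Figure D1:**
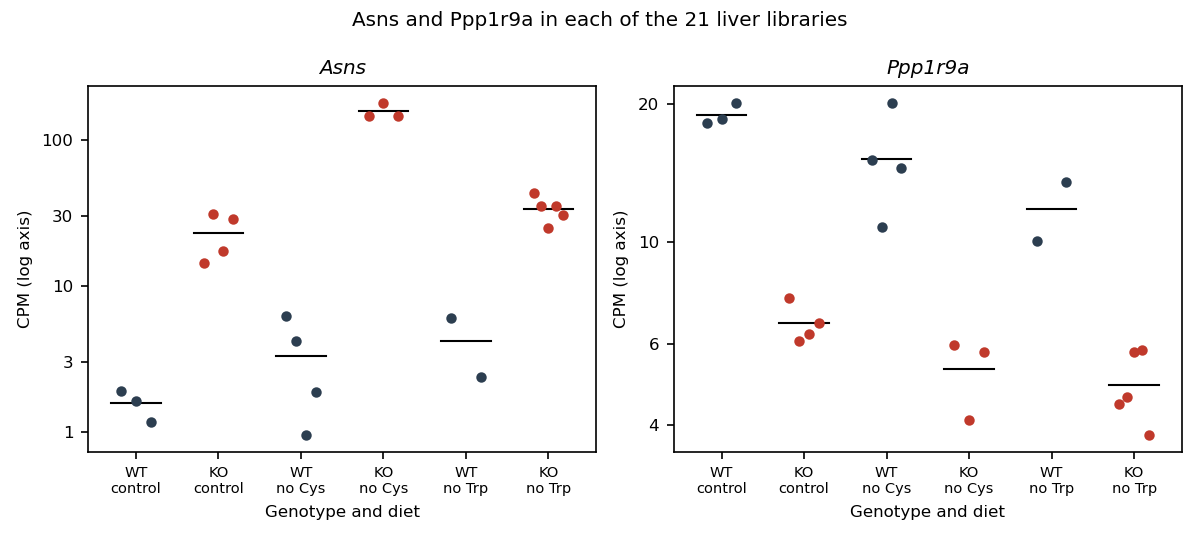
CPM of *Asns* (left) and *Ppp1r9a* (right) on log axes, 1 point per library, with WT in dark blue, KO in red and a bar at each group mean. All 12 KO libraries lie above the 9 WT libraries for *Asns*, at 14.3 CPM or more against 6.18 or less, and below them for *Ppp1r9a*, at 7.56 or less against 10.1 or more.

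Diet moved *Asns* within the knockouts. KO noCys averaged 158 ± 19.9 CPM (SD, n = 3), KO noTrp 33.8 ± 6.82 (n = 5) and KO CTR 23.0 ± 8.36 (n = 4). In KO, *Asns* was 2.22 higher on the log2 scale without cysteine than without tryptophan (SE 0.31, adjusted p = 0.000119). The control-diet libraries took part in choosing *Asns*, so comparisons with them are descriptions. KO noCys lay above KO CTR by 2.78 (95% interval 2.07 to 3.48) without overlap, and KO noTrp and KO CTR overlapped, at a difference of 0.55 (95% interval -0.07 to 1.18). These 3 comparisons share groups. In WT the means were 1.56 ± 0.376 CPM on the control diet (n = 3), 3.29 ± 2.36 without cysteine (n = 4) and 4.21 ± 2.58 without tryptophan (n = 2). In WT, removing cysteine gave a log2 fold change of 1.08 (95% interval -0.04 to 2.20) and removing tryptophan 1.43 (95% interval 0.19 to 2.66), also as descriptions.

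The size of the genotype difference in *Asns* depended on which amino acid was missing. It was 2.57 larger on the log2 scale without cysteine than without tryptophan (SE 0.58, adjusted p = 0.0106). The difference was 3.16 without WT noCys replicate 1 (adjusted p = 0.00261). The call was lost without WT noTrp replicate 1 (1.75, adjusted p = 0.209) and with limma-voom (2.76, adjusted p = 0.0580). The genotype difference without cysteine exceeded that on the control diet by 1.70 (SE 0.66, 95% interval 0.31 to 3.08). This is given without a test, since the difference on the control diet chose the gene.

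The other ISR genes were raised chiefly in KO without cysteine. Without cysteine 38 of the 46 tested passed the test between KO and WT, 36 higher and 2 lower, against 28.2% of all tested genes (14.8% higher and 13.4% lower), and the list's median log2 fold change was 1.17 against -0.02 over all genes. *Psat1*, an enzyme of serine synthesis, rose by 6.55 (SE 0.46) and *Fgf21*, a hormone secreted by stressed liver, by 5.36 (SE 0.95). *Phgdh*, the first enzyme of serine synthesis and the called gene of lowest mean level, rose by 2.93, and *Gpt2*, an alanine aminotransferase and the one of highest mean level, by 0.51. The 2 that fell were *Stc2* (-1.30) and *Cebpb* (-0.78). Among the 15 tested genes of the list with a CARE match 12 rose and none fell, with a median of 1.75, and among the 23 with a window and no match 16 rose and 2 fell, with a median of 0.93.

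On the control diet and without tryptophan no other gene of the list passed. None of the 46 passed edgeR's test between KO and WT on the control diet (median 0.27, 9 at an unadjusted p under 0.05, 1 called by DESeq2 and none by limma-voom), and none did without tryptophan (median 0.10, 8 at an unadjusted p under 0.05, 1 called by DESeq2 and none by limma-voom). Without tryptophan *Asns* was at 2.99, and the highest value of the list was 1.93 (*Psat1*). On the control diet, where its size chose *Asns*, it was at 3.86 and the highest of the list was 3.47 (*Fgf21*), from which no rank is read. Within KO, 36 of the 46 rose without cysteine against the control diet, where 20.2% of all genes were called in either direction, and 2 rose without tryptophan, where 1.87% were called, *Psat1* by 2.04 and *Pck2*, a mitochondrial gluconeogenic enzyme, by 1.19. These comparisons share the KO CTR libraries. In WT 3 of the 46 rose without tryptophan, where 3.19% of all genes were called in either direction, namely *Psat1* (2.53), *Pck2* (1.26) and *Ppp1r15a* (1.11), where WT noTrp had 2 animals and neither limma-voom nor the fit with a replicate block called any of the 46.

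**Figure D2:**
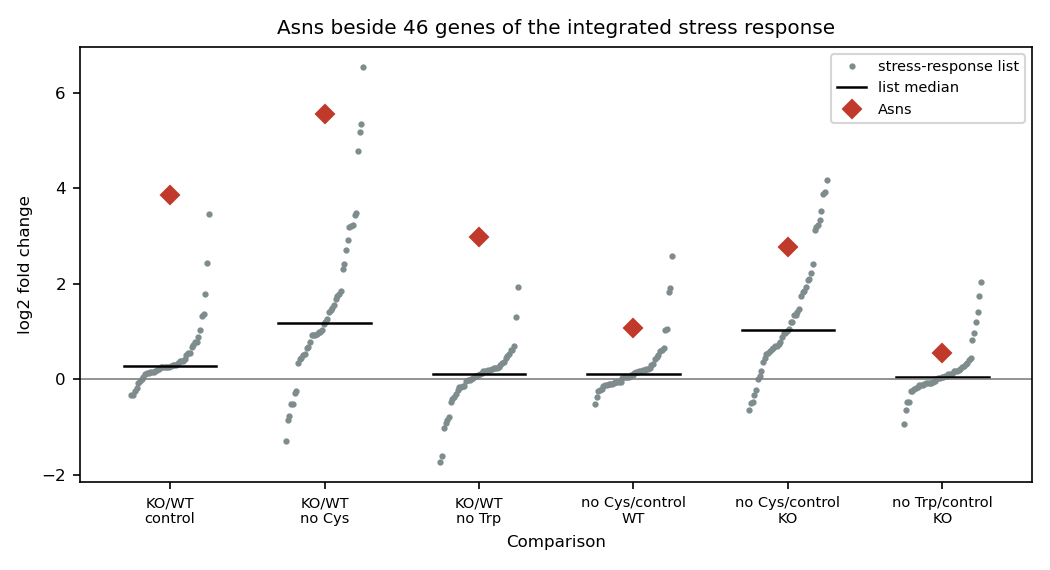
Log2 fold changes of *Asns* (red diamonds) and of 46 other tested ISR genes (grey points in rising order, black bar at their median) in 6 comparisons. *Asns* lies above all 46 between KO and WT without tryptophan (2.99) and below only *Psat1* without cysteine (5.56), where the list's median is 1.17, while its place on the control diet (3.86) follows from how it was chosen.

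*Asns* was also set beside 15 other genes whose enzymes make or use asparagine, aspartate, glutamine or glutamate. Of these 15, 7 passed between KO and WT without cysteine, 6 higher (14.8% of all genes were) and 1 lower (13.4%). *Cad*, which starts pyrimidine synthesis from glutamine and aspartate, rose by 1.09 (SE 0.22). *Glud1*, glutamate dehydrogenase, fell by 0.49 on the log2 scale (SE 0.15). Without tryptophan none of the 15 passed by edgeR, DESeq2 or limma-voom, and none was at an unadjusted p under 0.05.

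*Ppp1r9a*, 2.51 Mb from *Asns*, was lower in KO livers on every diet. On the control diet it was at 18.2, 18.6 and 20.1 CPM in WT CTR and at 7.56, 6.10, 6.30 and 6.67 CPM in KO CTR. The groups did not overlap and the log2 fold change was -1.51, again a description.

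Without cysteine *Ppp1r9a* was at 15.1, 10.8, 20.1 and 14.5 CPM in WT noCys and at 5.98, 4.10 and 5.78 CPM in KO noCys. Without tryptophan it was at 10.1 and 13.5 CPM in WT noTrp and at 4.45, 4.61, 5.76, 5.83 and 3.81 CPM in KO noTrp. On both diets all KO libraries were below all WT libraries. The genotypes were likewise apart, in either direction, for 37.6% of all tested genes without cysteine and 9.94% without tryptophan. *Ppp1r9a* (ENSMUSG00000032827, chromosome 6, 4902917 to 5165661, plus strand) was 2.90-fold lower in KO without cysteine (log2 fold change -1.54, SE 0.20, adjusted p = 1.48e-05) and 2.41-fold lower without tryptophan (-1.27, SE 0.20, adjusted p = 0.0061). The second call was lost in a fit of only the groups compared (adjusted p = 0.167) and with limma-voom (adjusted p = 0.159), at nearly the same size.

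The *Ppp1r9a* difference was of like size on the 3 diets. Without cysteine it differed from that on the control diet by -0.03 (95% interval -0.58 to 0.53, not tested for the same reason as in *Asns*) and from that without tryptophan by -0.27 (95% interval -0.86 to 0.32, adjusted p = 0.644). Within KO it differed by 0.10 between the diets without cysteine and without tryptophan (95% interval -0.31 to 0.50, adjusted p = 0.786). Against the control diet, as descriptions, *Ppp1r9a* was at -0.35 and -0.44 in KO and at -0.32 and -0.69 in WT, without cysteine and without tryptophan in turn. Provisional transcripts, *Gm26814*, *Gm26556* and *Gm26736*, lie within *Ppp1r9a* on its strand and share no exon base with it.

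*Asns* and *Ppp1r9a* were 2 of 40 genes (0.278% of those tested) whose 12 KO and 9 WT libraries did not overlap over all 21 libraries, and no other gene of the 10 was among them. The 7 control-diet libraries in this count also chose both genes, so it is a description. Over the 14 libraries of the depleted diets alone the same 2 of the 10 were separated, against 1.85% of all genes. Both had been chosen for a genotype difference, so this is a description too. Of the 40, 19 were higher in KO and 21 lower. None was among the 46 other ISR genes, which says little at a share of 0.278% of all genes. The medians of *Asns* were 33.2 CPM in KO and 1.91 in WT.

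Among the imprinted pair, whose starts are 98 bases apart, *Sgce*, the gene of ε-sarcoglycan, was lower in KO without cysteine. It was at 6.07, 3.83, 4.27 and 3.43 CPM in WT noCys and at 2.26, 2.05 and 1.74 CPM in KO noCys, with no overlap. *Sgce* (ENSMUSG00000004631, chromosome 6, 4674350 to 4747207, minus strand) differed by -1.14 (SE 0.34, adjusted p = 0.0162). Without tryptophan *Sgce* was at 5.63 and 2.54 CPM in WT noTrp and at 2.33, 1.77, 2.88, 1.28 and 2.01 CPM in KO noTrp, where the groups overlapped (-0.97, SE 0.35, adjusted p = 0.351). Over the mean of the 2 depleted diets the difference was -1.05 (SE 0.24, adjusted p = 0.00525). With the control diet *Sgce* was at 4.98, 5.41 and 2.44 CPM in WT CTR and at 2.71, 2.64, 1.65 and 3.75 CPM in KO CTR, which overlapped (-0.69, 95% interval -1.37 to -0.01, as a description). *Sgce* rested on 13 to 104 reads per library. The mean was -0.71 without WT noTrp replicate 1 (adjusted p = 0.0932), and the call without cysteine was lost without WT noCys replicate 1 (adjusted p = 0.0598), KO noCys replicate 3 (adjusted p = 0.0606) or KO noCys replicate 4 (adjusted p = 0.0678).

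*Peg10* had 0 to 11 reads per library and was too low to test. Its median was 0.467 CPM over the 9 WT libraries and 0.155 over the 12 KO libraries, and the ranges overlapped. With no filter on low counts its KO to WT values were -0.88 (SE 0.70) on the diet lacking cysteine and -1.23 (SE 0.72) on the diet lacking tryptophan, with adjusted p of 0.506 and 0.925. Of 21 tested imprinted genes on the list used here, 8 passed between KO and WT without cysteine, 5 higher and 3 lower, where 28.2% of all genes did, and 5 of the 21 with the replicate number as a block. The list's median was -0.30. The 5 higher ones included *Rian* (2.61) and *Meg3* (2.08), noncoding RNAs of one cluster on another chromosome, and *Igf2r* (0.30). The 3 lower ones moved in the same direction as *Sgce*.

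*Casd1* was at 29.2, 25.2 and 29.2 CPM in WT CTR and at 21.1, 19.5, 21.4 and 21.9 CPM in KO CTR, which did not overlap (log2 fold change -0.41, as a description). On that diet the genotypes were apart for 10.9% of all tested genes, in either direction. Without cysteine it was at 21.8, 23.4, 22.0 and 24.0 CPM in WT noCys and at 21.1, 19.3 and 18.3 CPM in KO noCys. The groups were again apart by a small margin, and the value of -0.23 (SE 0.09, adjusted p = 0.0547) just missed the threshold. Its difference was -0.12 without tryptophan (SE 0.09, adjusted p = 0.799), where the ranges met.

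*Pon1* was the most abundant of the 10 genes per length, at 206 to 236 CPM per kb of exon over the 6 group means, followed by *Sem1* at 21.1 to 32.4. *Pon3* was at 9.83 to 10.6, *Pon2* at 5.24 to 7.65 and *Casd1* at 4.84 to 6.90 CPM per kb. *Asns* ran from 0.572 CPM per kb in WT CTR, below *Col1a2* (0.703 to 1.43 over groups), to 57.8 in KO noCys, above all but *Pon1*. *Ppp1r9a* was at 0.337 to 1.30, *Sgce* at 0.190 to 0.415 and *Peg10* at 0.0224 to 0.0849 CPM per kb.

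Of the 3 paraoxonase genes only *Pon2* passed a test. *Pon2* was at 57.9, 56.2, 56.6 and 53.9 CPM in WT noCys and at 36.2, 42.5 and 36.8 CPM in KO noCys. *Pon2* (ENSMUSG00000032667, chromosome 6, 5264147 to 5298455, minus strand) fell by 0.54 on the log2 scale in KO without cysteine (SE 0.09, adjusted p = 0.000125), a call kept under all 14 alternatives with values from -0.62 to -0.32, the smallest with libraries scaled by their totals, and was at -0.18 without tryptophan (SE 0.09, adjusted p = 0.602). The same gene was at 43.6, 48.8 and 48.1 CPM in WT CTR, so that the WT noCys libraries lay above those of WT CTR (0.26, SE 0.09, adjusted p = 0.16) while KO noCys lay near KO CTR (-0.09, adjusted p = 0.509). KO lay below WT by a small margin on the control diet too, at 39.7, 42.9, 40.7 and 40.5 CPM in KO CTR (-0.19, 95% interval -0.37 to -0.02, as a description). The genotype difference without cysteine against that on the control diet was -0.35 (SE 0.12, adjusted p = 0.0858). An antisense transcript, *Gm44424*, shares 680 exon bases with *Pon2* and had no row in the count table, and the library kit did not mark strand.

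*Pon1* spanned 545 to 763 CPM in KO and 572 to 738 in WT. Its KO to WT values were -0.10 without cysteine (95% interval -0.34 to 0.13) and 0.11 without tryptophan (95% interval -0.15 to 0.37). *Pon3* spanned 30.5 to 38.4 CPM in KO and 30.03 to 39.3 in WT, with values of -0.09 (95% interval -0.29 to 0.12) and -0.04 (95% interval -0.26 to 0.19). Of 15 genes of their lipoprotein carriers and partners, 10 were called between KO and WT without cysteine, beside 28.2% of all genes, with 1 higher (*Abca1*, 0.42) and 9 lower and a list median of -0.46. The lower ones included *Lipg*, endothelial lipase (-1.64), *Apoc1* (-1.26), *Apoc3* (-1.01) and *Apoe* (-0.30). Without tryptophan none of the 15 was called by edgeR, DESeq2 or limma-voom, with 4 at an unadjusted p under 0.05.

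*Sem1* was lower in 1 group only, KO without cysteine. It was at 72.2, 69.2 and 83.4 CPM in KO noCys, below every other library, which ranged from 94.4 to 130 CPM. The WT noCys libraries were at 100.01, 114, 112 and 102 CPM. *Sem1* (ENSMUSG00000042541, chromosome 6, 6557294 to 6578663, minus strand) was lower in KO than in WT without cysteine (-0.51, SE 0.11, adjusted p = 0.00211), lower in KO noCys than in KO CTR (-0.61, SE 0.11, adjusted p = 0.000791) and lower in KO noCys than in KO noTrp (-0.52, SE 0.11, adjusted p = 0.00389). The first call was lost when libraries were scaled by their totals alone (-0.30, adjusted p = 0.0681). Without tryptophan KO and WT overlapped (-0.02, 95% interval -0.27 to 0.24).

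The genotype by cysteine interaction of *Sem1* was -0.55 (SE 0.16, adjusted p = 0.0406), and it passed in 9 of 21 alternatives. Of 12 other tested non-ATPase subunits of the proteasome's regulatory particle, 4 passed between KO and WT without cysteine. All 4 were higher, unlike *Sem1*, where 14.8% of all genes were called higher. With libraries scaled by their totals 9 of the 12 passed. The 4 were *Psmd4* (0.53), *Adrm1* (0.40), *Psmd2* (0.34) and *Psmd3* (0.24).

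*Col1a2* varied widely between replicates. It was at 22.3, 21.3, 15.6 and 10.0 CPM in WT noCys and at 7.22, 7.86 and 11.1 CPM in KO noCys, where the ranges overlapped, and differed by -0.97 (SE 0.35, adjusted p = 0.0417), a call that 6 of 14 alternatives kept. Its highest value, 32.4 CPM, was in KO CTR replicate 4, against 15.3, 8.32 and 14.9 in the other KO CTR libraries. In KO noCys against KO CTR it was at -0.99 (SE 0.35, adjusted p = 0.0477) and without that library at -0.55 (adjusted p = 0.208), and 4 of 14 alternatives kept the call. The 19 stellate and fibroblast markers, none of them at 0 in any library, summed to 563 to 651 CPM in KO noCys, 593 to 856 in WT noCys and 583 to 1035 in KO CTR, with the highest sum also in KO CTR replicate 4. Of the 19, 4 passed between KO and WT without cysteine, all of them lower, where 13.4% of all genes were called lower, and DESeq2 and the fit with a replicate block called 6. The 4 were *Col3a1* (-1.37), *Tagln* (-1.14), *Lum* (-0.77) and *Sparc* (-0.67). All 19 had values below 0, with a median of -0.38. Several other cell types had medians below 0 in the same comparison. The median was -0.51 for 8 endothelial genes (3 called lower), -0.62 for 8 Kupffer cell genes (2) and -0.87 for 5 cholangiocyte genes (2). It was -1.02 for 5 erythroid genes (3) and -0.72 for 4 leukocyte genes. Sums of adipocyte and muscle markers had higher medians in KO noCys (10.7 and 1.57 CPM) than in WT noCys (7.40 and 1.24), with overlapping ranges. The part of cell makeup in the *Col1a2* values was not tested.

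**Figure D3:**
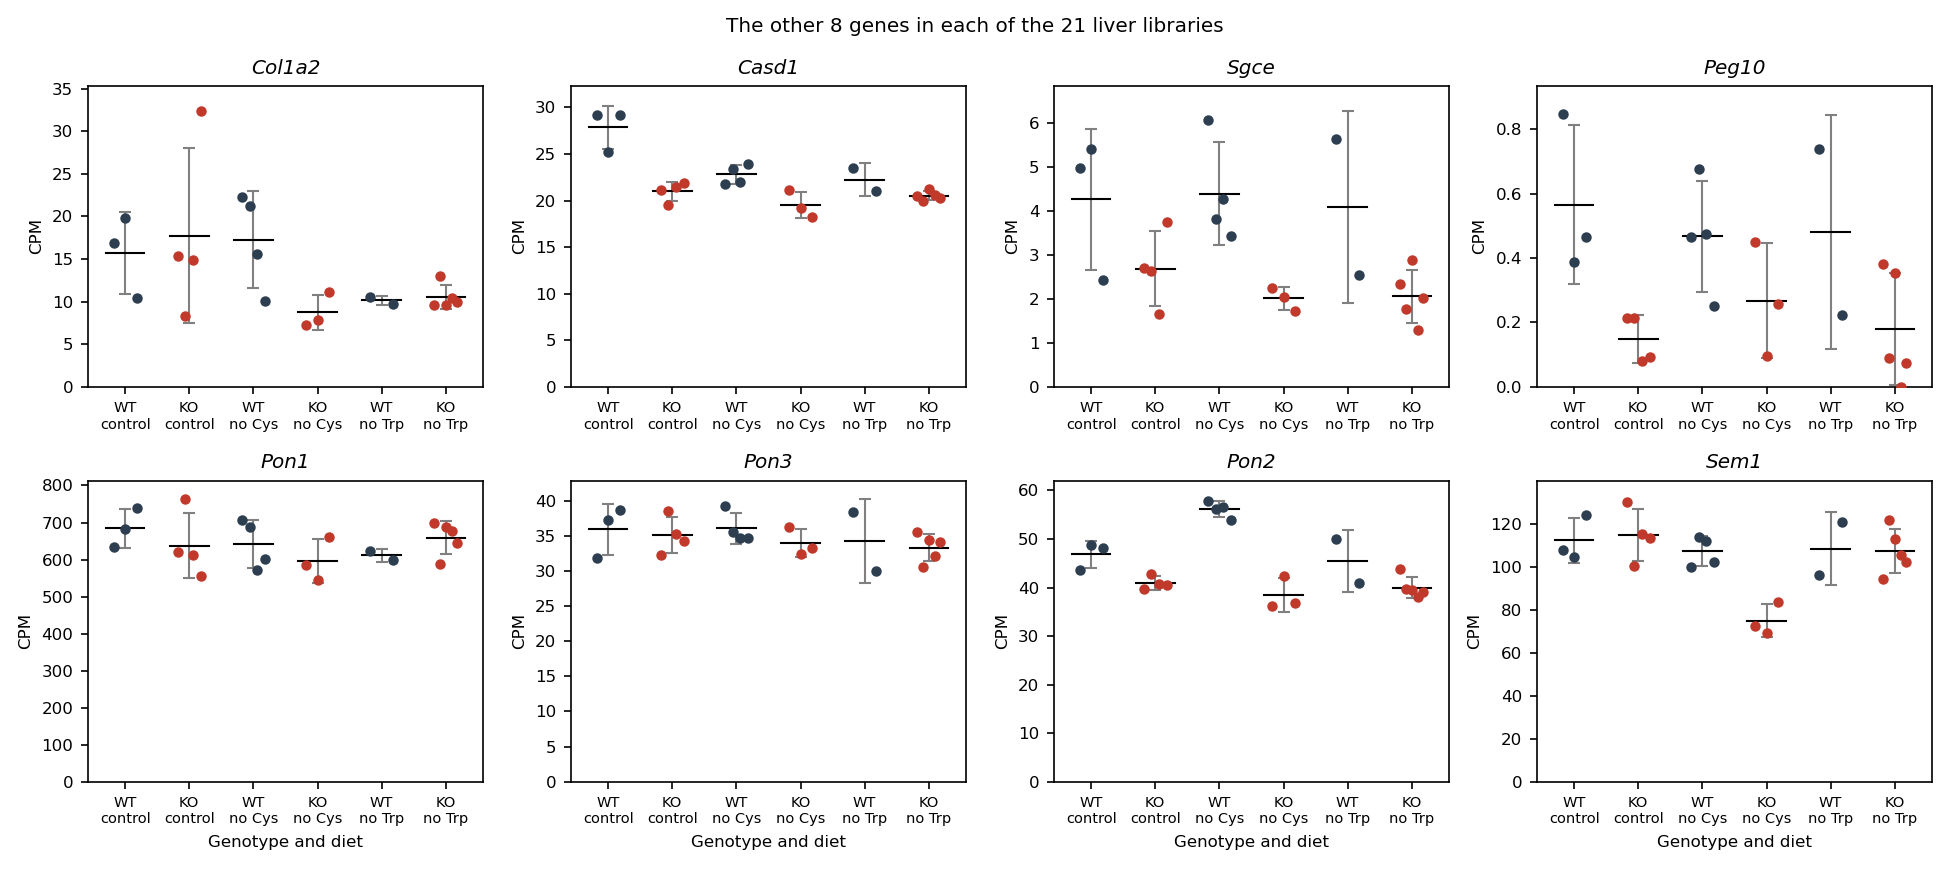
CPM of the other 8 genes on linear axes from 0, 1 point per library, with WT in dark blue, KO in red, a black bar at each group mean and grey bars of 1 SD. *Sem1* is low in KO noCys alone, at 69.2 to 83.4 CPM, *Pon2* is highest in WT noCys, at 53.9 to 57.9, and *Pon1* and *Pon3* overlap between the genotypes.

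Counted together, 6 of the 9 tested genes were called between KO and WT without cysteine, *Asns* higher and 5 lower, where 14.8% of all tested genes were called higher and 13.4% lower. With libraries scaled by their totals alone, the share of called genes that were higher moved from 52.5% to 80.0% and the median of all genes from -0.02 to 0.20. With that scaling 4 of the 9 were called, without *Sem1* and *Col1a2*. Without tryptophan only *Asns* and *Ppp1r9a* were called, where 0.195% of all genes were, and DESeq2 called 2 of the 9 and limma-voom none. For the mean of the depleted diets 5 of 9 were called against 18%, namely *Asns* (4.28), *Ppp1r9a* (-1.40), *Sgce* (-1.05), *Pon2* (-0.36) and *Sem1* (-0.27). The *Sem1* call for the mean held in 12 of 21 alternatives, with values from -0.34 to -0.15. On the control diet, where *Asns* and *Ppp1r9a* were chosen, 0.32% of all genes were called and no count is drawn from the 9. That choice was of a genotype difference, so KO to WT counts that hold these 2 genes are descriptions on the other diets too. Of the 7 others, 4 were called without cysteine, all lower, where 13.4% of all genes were called lower. Without tryptophan 0 of the 7 were called, and for the mean of the depleted diets 3 were, against 18% of all genes.

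For the comparisons with the control diet the counts leave out *Asns* and *Ppp1r9a*. In KO without cysteine 2 of the 7 others passed against the control diet, *Sem1* and *Col1a2*, with 20.2% of all genes called, and limma-voom called 1 of the 7. Against the diet without tryptophan 2 of 9 passed in KO, *Asns* and *Sem1*, with 13.9% of all genes called. By edgeR none of the 7 passed in KO without tryptophan (1.87% of all genes, 1 of the 7 at an unadjusted p under 0.05), in WT without cysteine (0.661%, 2 of the 7) or in WT without tryptophan (3.19%, 1 of the 7). DESeq2 also called none in these 3 comparisons, and limma-voom called 2, *Casd1* (-0.28) and *Pon2* (0.28), both in WT without cysteine. Of the tests of a difference between differences, 1 of the 7 passed for genotype by cysteine (*Sem1*, with 7.44% of all genes called) and 1 of 9 for the genotype effect without cysteine against without tryptophan (*Asns*, with 6.35%).

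**Figure D4:**
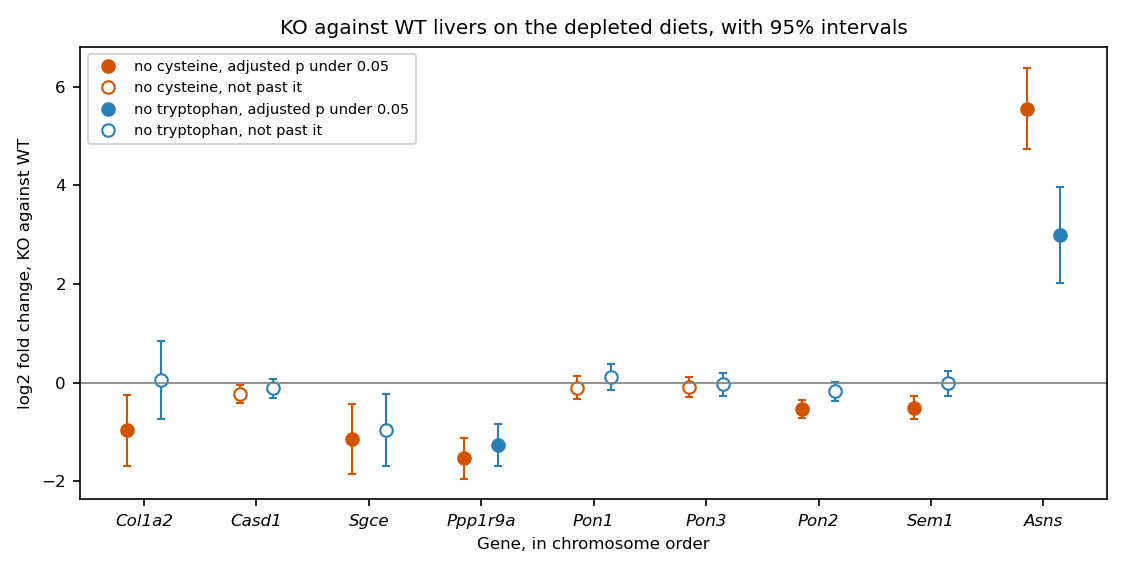
Log2 fold changes of the 9 tested genes between KO and WT, in chromosome order, with 95% intervals, without cysteine (orange) and without tryptophan (blue), where filled points have an adjusted p under 0.05. Only *Asns* (5.56 and 2.99) and *Ppp1r9a* (-1.54 and -1.27) are filled on both diets.

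Of the 22 other tested genes within 5 Mb of *Asns*, 6 were called between KO and WT without cysteine (27.3%, where 28.2% of all genes were) and 5 for the mean of the depleted diets (22.7%, against 18% of all genes). With the replicate number as a block 2 were called in each, and with limma-voom 8 without cysteine and 2 for the mean. Without tryptophan none was called by edgeR, DESeq2 or limma-voom, and 4 were at an unadjusted p under 0.05. The 5 called for the mean were *Gm26814* (-1.69), which lies inside *Ppp1r9a*, *Gng11*, a G protein γ subunit (-0.53), *Tfpi2*, a protease inhibitor (0.37), *Ndufa4*, a respiratory chain subunit (-0.29), and *Mios*, a subunit of the GATOR2 complex that signals amino acids to mTORC1 (0.26). *C1galt1*, the tested gene next to *Asns* on the higher-coordinate side, was at 0.22 on the log2 scale without cysteine (adjusted p = 0.559), and *Sdhaf3*, next on the other side, was at -0.32 (adjusted p = 0.174).

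*Mios* was at 8.26 to 9.17 CPM in WT noCys and at 10.4, 12.3 and 9.32 CPM in KO noCys. Its KO libraries lay above the WT ones by a small margin. Farther along chromosome 6, 4 of 14 genes at 5 to 10 Mb were called without cysteine (28.6%), 3 of 18 at 10 to 20 Mb (16.7%) and 199 of 642 beyond 20 Mb. For the mean of the depleted diets the counts were 1 of 14, 1 of 18 and 128 of 642 (19.9%). Around the targeted gene, on chromosome 3, 5 of 18 tested genes within 5 Mb of *Cth* were called without cysteine (27.8%) and 7 for that mean (38.9%). The largest change for the mean was in *Gm43314* (-5.78), which overlaps *Cth*. *Gm6520* followed (-2.19), with 14.4 CPM in 1 WT noTrp library and 1.046 in the other, and was not called without cysteine (-0.95, adjusted p = 0.309). Gene counts carry no genotype at chromosome 6, and whether the DNA there differs between KO and WT animals was not tested.

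**Figure D5:**
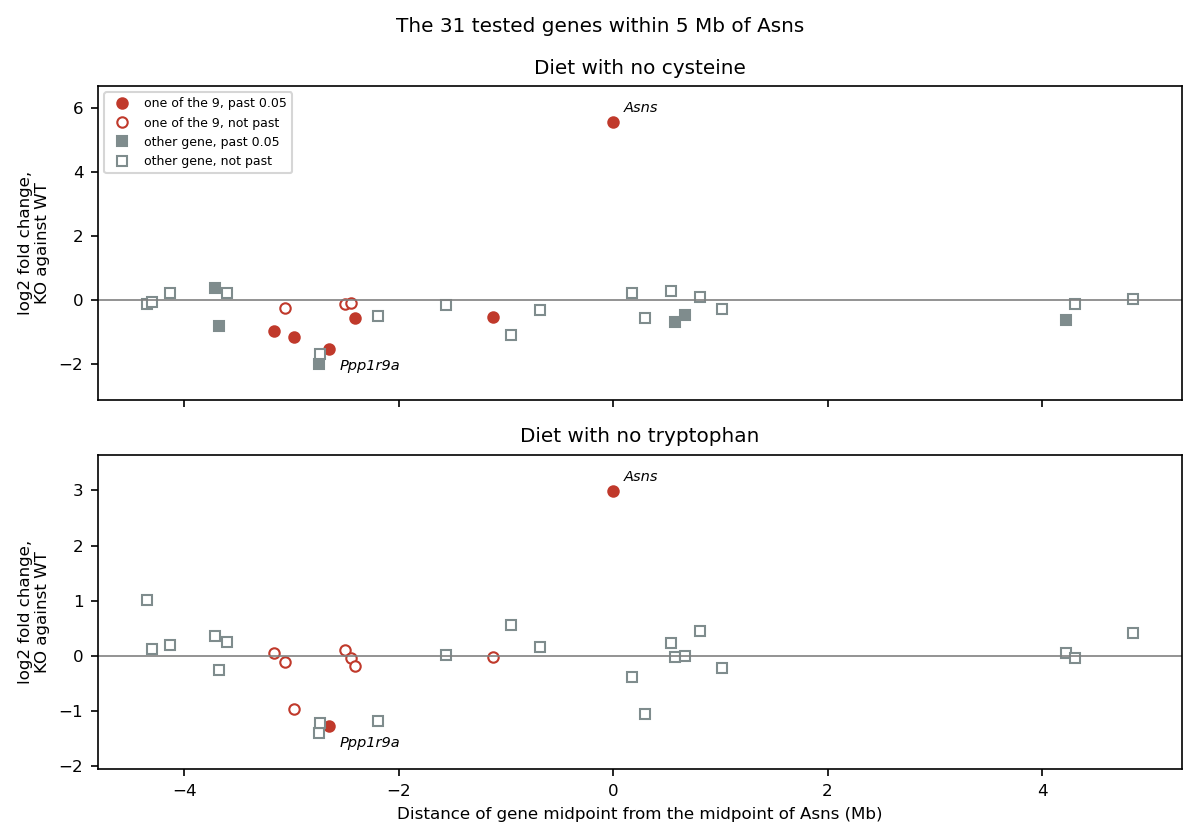
Log2 fold changes between KO and WT of the 31 tested genes within 5 Mb of *Asns*, against distance in Mb, without cysteine (top) and without tryptophan (bottom), where red circles are the 9 tested genes described here, grey squares are other genes, and filled symbols have an adjusted p under 0.05. *Asns* stands alone at 5.56 and 2.99, and the tested genes on either side of it lie at 0.22 and -0.32 without cysteine.

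Across the 21 libraries the genes whose CPM ranked most like *Asns* were *Tmem147* (Spearman's rho 0.93), *Psat1* (0.93), *Eif2s1*, the α subunit of eIF2 (0.92), *Gpat3* (0.92) and *Fam187b* (0.92). Those most like *Ppp1r9a* were *Gm2a* (0.89), *Wfdc2* (0.89), *Robo1* (0.89), *Neb* (0.88) and *Map3k20* (0.88). None of these 10 lies on chromosome 6, but 10 genes are too few to read anything from their chromosomes. *Casd1*, on chromosome 6, ranked 46 among all tested genes for likeness to *Ppp1r9a*. Between *Asns* and *Ppp1r9a* rho was -0.90, between *Ppp1r9a* and *Casd1* 0.82 and between *Ppp1r9a* and *Sgce* 0.68. These coefficients describe 21 shared libraries that fall into 6 groups, so they reflect the group differences given above as well as any spread within groups.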

How the data were processed

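Liver RNA of 21 mice was measured by bulk RNA sequencing. The authors purified poly(A) RNA from TRIzol extracts, used a library kit that does not mark strand, aligned read pairs to GRCm38 with HISAT2 2.1.0 and made the deposited counts with HTSeq 0.11.0 (versions from the submitters' processing notes). The deposited values are raw counts per gene with no normalization. The annotation release and strand setting are not given in the sources used here. The table held 1 further column that no label matched, which was left out. Of 46078 identifiers, 45143 were in GENCODE M21 (same build), which gave symbols and coordinates. The 935 others held 0.0715% of counts.

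edgeR 4.0.16 in R 4.3.3 was run on all 21 libraries in 1 one-way model over 6 groups, with TMM scaling (factors 0.883 to 1.14) and filterByExpr (minimum count 10, minimum total 15), which kept 14370 of 26504 genes with any count. Tests were two-sided quasi-likelihood F-tests with Benjamini-Hochberg adjustment over all tested genes, and a gene was called at an adjusted p under 0.05. CPM are counts scaled by TMM library sizes. The script was tested on simulated data. No replicates were duplicates, and same-numbered animals did not deviate together. Libraries of 8889951 counts or more set the counting precision. Promoter windows came from RefSeq (GRCm38.p6). Alternatives were DESeq2 1.42.0, limma-voom (limma 3.58.1) with quality weights, RLE factors, library totals, no filter, the groups compared only, a replicate block, and leaving out each library.

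The members, gene lists and comparisons were chosen with earlier results of these data known. Lists are given by counts, with up to 4 examples of extreme level or change among those called. Non-members near *Asns* were named when called for the mean of the depleted diets. Genes named outside these rules, such as those whose sequences are shown or the nearest neighbours of *Asns*, were chosen after their values were seen. Groups came from sample titles.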

Additional observations from a re-analysis of the deposited data

Results flagged for a closer look

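*Col1a2* in KO noTrp replicate 2, at 13.04 CPM, stood apart from the other 4 libraries of its group, which lay between 9.64 and 10.5. Of 30 gene and group combinations examined for a library far from the rest this was the 1 found. Chance alone flags about 1 combination in 20, so 1 of 30 is no more than chance gives.

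The *Asns* difference between KO and WT was larger without cysteine than without tryptophan, by 2.57 on the log2 scale (SE 0.58, adjusted p = 0.0106, edgeR). It was 1.75 without WT noTrp replicate 1, and limma-voom did not call it. Every KO library lay above every WT library on both diets, which does not measure the difference between the diets.

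The *Sem1* difference between KO and WT without cysteine, less that on the control diet, was -0.55 on the log2 scale (SE 0.16, adjusted p = 0.0406, edgeR). This call held in 9 of 21 alternatives. All 3 KO noCys libraries were below all 4 WT noCys libraries, whereas KO CTR and WT CTR overlapped.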

How the results depend on the processing

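Leaving out the genotype difference on the control diet, and for *Asns* and *Ppp1r9a* every comparison with that diet, 268 of 317 alternative values of called results of the 9 tested genes stayed called, 49 lost the call and none changed sign. Of 987 values of results not called, 9 gained a call and 75 changed sign. *Asns* and *Ppp1r9a* were called between KO and WT without cysteine in 14 of 14 alternatives and for the mean of the depleted diets in 21 of 21. The number of all genes called moved more. Beside 46 between KO and WT on the control diet, it was 122 with DESeq2, 86 with limma-voom, 154 with no filter and 6 with only the groups compared, and beside 28 without tryptophan it was 117, 6, 101 and 4. For KO without tryptophan against the control diet it was 269, and 606, 610 and 136 with DESeq2, limma-voom and only the groups compared. For WT without cysteine it was 95, and 305, 533, 269 and 396 in the first order, and for WT without tryptophan it was 459, and 753, 32 and 3 with DESeq2, limma-voom and only the groups compared. With limma-voom it was also 3204 beside 2000 in KO without cysteine against without tryptophan, 2179 beside 1069 for genotype by cysteine, and 553 beside 912 for the genotype effect without cysteine against without tryptophan. Why these counts moved was not tested.

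Leaving out 1 library at a time gave 9 to 53 calls between KO and WT on the control diet, 2358 to 3895 without cysteine, 14 to 230 without tryptophan and 1727 to 2778 for the mean of the depleted diets. It gave 1379 to 2979 in KO and 1 to 53 in WT for cysteine removal, 105 to 447 in KO and 99 to 728 in WT for tryptophan removal, 570 to 2124 between the depleted diets in KO, 430 to 1399 for genotype by cysteine and 416 to 1179 for the difference of the genotype effects. KO noCys replicate 3 gave the lowest count without cysteine, WT CTR replicate 3 the lowest in WT without cysteine, and WT noTrp replicates 1 and 2 the lowest and highest without tryptophan. Where a WT noTrp library was left out, the lone one left was assumed to vary like the other groups.

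Replicate numbers did not pair the animals. Deviations of 41 same-numbered pairs correlated at a median of -0.03, with 9 over 0.1. With the replicate number as a block, calls were 10 on the control diet, 3504 without cysteine, 21 without tryptophan, 1695 for the mean of the depleted diets, 14 and 191 in WT without cysteine and without tryptophan, and 1302 between the depleted diets in KO. *Sem1* for the mean (-0.26, adjusted p = 0.0843) and for genotype by cysteine (-0.54, adjusted p = 0.0770), and *Col1a2* without cysteine (-0.996, adjusted p = 0.0611) and in KO against the control diet (-0.96, adjusted p = 0.0813), were not called in the fit with the block.

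Depth limits *Asns* in WT, *Sgce*, *Peg10* and *Gm26814*, which rested on few reads.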
